A study of Mus musculus with 9 samples.

Results

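Interferon-stimulated genes are the genes that cells switch on when interferons, the cytokines of antiviral and antibacterial defence, reach them. Here 44 such genes were followed in cultured mouse regulatory T cells (Tregs), out of the 23992 gene symbols that the deposited tables hold. They were chosen by symbol from a list of classical antiviral genes, interferon regulatory factors, nucleic acid sensors and the GTPase families GBP and IRG. The choice was made with earlier results of these data known, so the list is not independent evidence. For each symbol the transcript with the most reads over all libraries was taken. All 44 were in the tables, and 35 were abundant enough to be tested.

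The cells were Tregs from spleens of BALB/c mice with a green fluorescent protein linked to Foxp3, the transcription factor that defines Tregs. All 3 groups carried, by transduction, an orthogonal IL-2 receptor beta chain with a human EGFR tag, so no group lacks the engineered receptor. The label for growth describes a different assay, a co-culture with naive T cells, and the culture given here follows the treatment label. Tregs were expanded with CD3/CD28 beads in 1000 IU/mL human IL-2 for 48 hours, selected magnetically by the tag, and then starved of IL-2 overnight. One group then stayed without IL-2, one received 20000 IU/mL wild-type (WT) IL-2 and one received 2000000 IU/mL orthogonal (ortho) IL-2, each for 4 hours and each with 3 libraries. The doses were not matched, with 100 times as many units of the ortho cytokine. The labels do not tie the 3 libraries to separate cultures or animals, so p-values reflect the spread among these samples alone, and that spread may be technical. The study asks how an engineered cytokine and receptor pair acts on Tregs, and the comparisons here are each cytokine against no IL-2 and the cytokines against each other.

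As background, type I interferons act through the receptor chains IFNAR1 and IFNAR2 and the kinases JAK1 and TYK2 on a complex that holds STAT2 and IRF9 and binds the interferon-stimulated response element (ISRE). Interferon gamma acts through its own receptor, JAK1 and JAK2, and its targets carry the gamma-activated sequence (GAS). IL-2 uses JAK1 and JAK3 and mainly STAT5, whose pairs bind sequences of the GAS form too. GBP and IRG GTPases are best known as targets of interferon gamma that attack bacteria and parasites inside cells, while the IFIT, OAS, MX and ISG15 genes are the textbook type I antiviral response.

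Reads in genes numbered 16581624 to 58182835 per library, which sets the counting precision. Treg markers were high: Foxp3 had a level of 137 ± 2.5 without IL-2, Cd3e 294 ± 5.64 and Ctla4 672 ± 1.07 (SD, n = 3), and 9 of 9 T cell and Treg markers were tested. With each cytokine 3 of these 9 were called higher, 5 lower and 1 was not called. Of all genes tested, 25% were called higher and 22.9% lower with WT IL-2, and 28.5% and 27.4% with ortho IL-2. Levels are RPKM computed from reads in genes, hence per transcript length, and scaled between libraries by the TMM method. Of markers of other cells, the filter was passed by 1 of 8 B cell markers, 1 of 15 of myeloid and plasmacytoid dendritic cells, 3 of 9 of CD8 T and NK cells, and 1 of 10 erythroid and stromal ones. The summed level of the B cell markers was 3.21 to 3.82 unstimulated, 2.95 to 3.47 under WT and 3.46 to 3.8 under ortho IL-2, and that of the myeloid markers was 5.16 to 5.51, 5.01 to 5.43 and 4.8 to 5.46. The CD8 T and NK cell markers summed to 12.2 to 12.9, 15.2 to 16.7 and 15.8 to 17.2, and the erythroid and stromal ones to 84.1 to 88.3, 67.5 to 68.8 and 66.3 to 69.4. Pecam1, an adhesion molecule of endothelial cells that some blood cells also carry, made up most of that last sum and was called lower with both cytokines (log2 -0.37 and -0.37), as was the myeloid marker Itgam (log2 -0.60 and -0.62). None of these lists had a marker with 0 reads in every library, and their part in the results was not tested. The IL-2 targets Il2ra and Cish rose with both cytokines, Il2ra 4.11-fold and 3.98-fold and Cish 7.73-fold and 8.14-fold with WT and ortho IL-2. They come from a list of 9 IL-2 targets, of which 7 were called higher and 2 lower with each cytokine. Reads outside the counted transcripts were 40.5% ± 2.43 of those the RPKM divide by in unstimulated libraries, 31.7% ± 2.96 after WT and 29.4% ± 3.64 after ortho IL-2 (SD, n = 3). This share differed between the 3 unstimulated and the 6 stimulated libraries (two-sided exact permutation p = 0.0238, the smallest this design allows). It ran from 38.9% to 43.3% in the former and from 25.7% to 34.9% in the latter, without overlap. A fit that holds it as a covariate therefore cannot tell it apart from IL-2, and a call lost in that fit does not show that the change is absent. Its part in the results was not tested otherwise. In these bulk libraries, fewer cells of a type and less RNA per cell cannot be told apart.

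WT IL-2 replicate 1 was the lowest of its group for 8 of the 9 GBP and IRG members and ortho IL-2 replicate 3 was the lowest of its group for 9 of 9. Over the 26 other members tested, the same libraries were lowest for 12 and 11. Both also stood apart over all genes tested, by the chi-square of read counts per degree of freedom between libraries of a group. It was 36.4 and 29.9 for WT IL-2 replicate 1 with replicates 2 and 3, against 7.76 between those. For ortho IL-2 replicate 3 with replicates 1 and 2 it was 24.2 and 24.3, against 6.66. Transcripts of these GTPases have a median GC content of 45.99% against 49.99% over all genes tested. Whether base composition has a part in this order was not tested. All 29 member calls of the WT comparison and all 32 of the ortho comparison were kept when both libraries were left out, a fit chosen after seeing the data. Since these libraries were the lowest for most of the GTPases, that fit could not test the GTPase rises.

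With WT IL-2, 25 of the 35 members tested rose, 4 fell and 6 were not called by edgeR's quasi-likelihood test at an adjusted p under 0.05, where of all 10702 genes tested 25% were called higher and 22.9% lower. With ortho IL-2, 28 rose, 4 fell and 3 were not called, where the background was 28.5% higher and 27.4% lower. The median log2 change over the members tested was 0.59 after WT IL-2 and 0.61 after ortho IL-2, against 0.01 and 0.01 over all genes. Among the members, 18 rose at least 1.5-fold after WT IL-2 and 19 after ortho IL-2, against 8.33% and 9.72% of all genes, and 1 fell that far in each, against 5.53% and 7.54%. The same no IL-2 libraries serve both comparisons, so the calls of one are not independent of those of the other. Since the members were chosen with earlier results of these data known, their excess over all genes is not independent evidence either. In the groups themselves, 27 members had every WT IL-2 library above every no IL-2 library and 4 had every one below, where the background was 30.3% and 28.5%. For ortho IL-2 these counts were 28 and 4, where the background was 33.9% and 32.2%. When the fit held that share of reads as a covariate, 24 of the 29 calls of the WT comparison and 22 of the 32 of the ortho comparison remained, at fewer calls over all genes too. On the deposited RPKM without TMM scaling, 28 members were called higher and 2 lower for WT IL-2 and 30 and 1 for ortho IL-2, where all genes split into 4459 and 867 and into 5599 and 922, against 2675 and 2447 and 3054 and 2936 in the scaled fit. Isg15 and Usp18 passed the filter through the stimulated libraries alone, so their place among the tested genes depended on the direction of their difference.

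**Figure D1:**
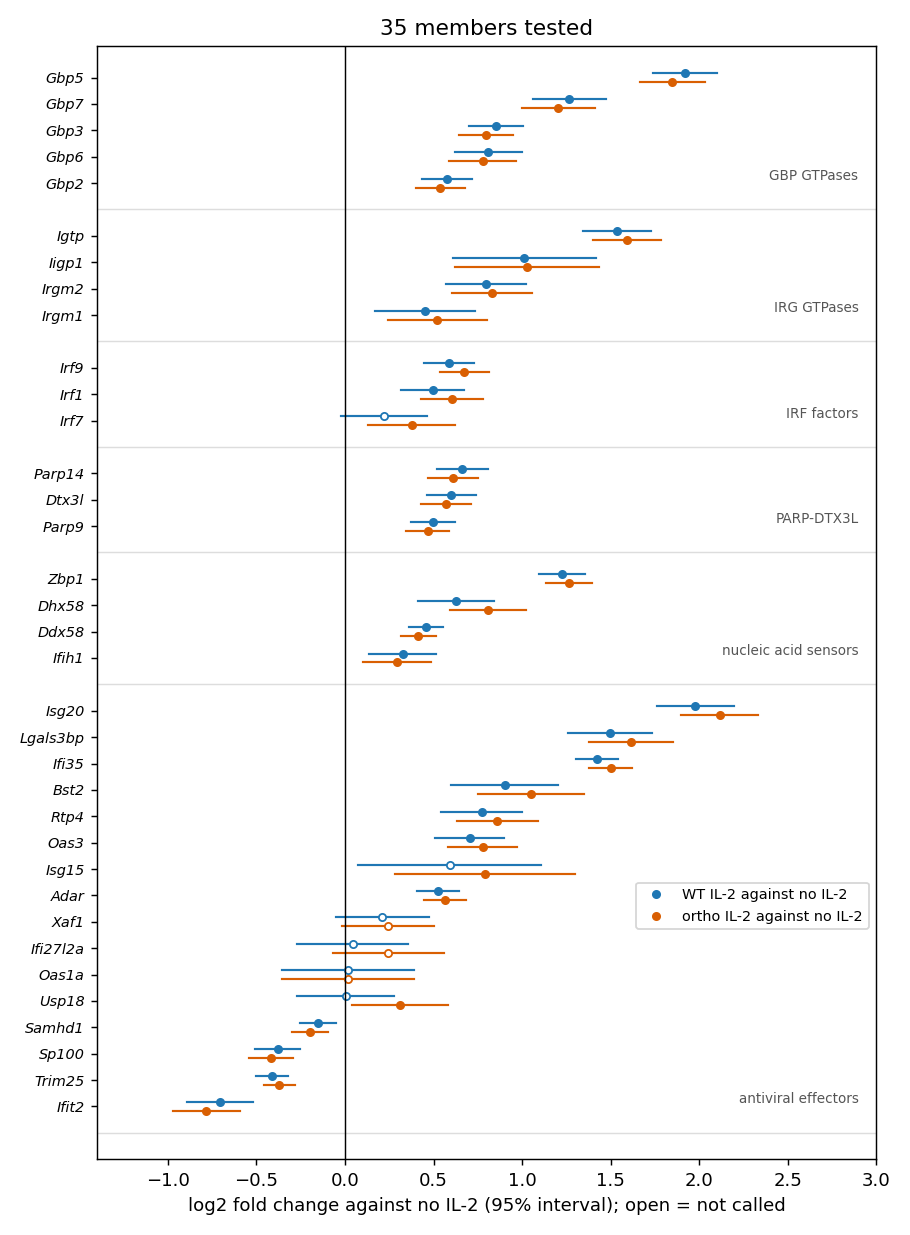
Log2 fold change of the 35 members tested, by role, for WT IL-2 (blue) and ortho IL-2 (orange) against no IL-2, with 95% intervals from edgeR; open circles were not called. All 9 GBP and IRG GTPases lie to the right of 0 with both cytokines, while the antiviral effectors run from Isg20 at 1.98 and 2.12 to Ifit2 at -0.71 and -0.78.

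The GBP and IRG GTPases rose in 9 of 9 cases with each cytokine, at median log2 changes of 0.85 and 0.83. Of the 25 antiviral effectors, 9 lay under the filter, and the 16 tested split into 7 higher, 4 lower and 5 not called after WT IL-2 and 9, 4 and 3 after ortho IL-2, at medians of 0.37 and 0.44. Isg15 and Usp18 make up the difference between 7 and 9, and they passed the filter through the stimulated libraries alone. That difference is therefore not evidence of a wider rise with ortho IL-2, and both medians include these genes. The shares of all genes called higher and lower were 25% and 22.9% for WT IL-2 and 28.5% and 27.4% for ortho IL-2, so the share of effectors that fell is near the background. Without IL-2 the GTPases had a median level of 47.3, against 13.5 for the 26 other members tested and 13.5 for all genes tested. Their summed level was 468 to 489 unstimulated, 957 to 1152 after WT IL-2 and 911 to 1129 after ortho IL-2, so the groups with and without IL-2 did not overlap.

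**Figure D2:**
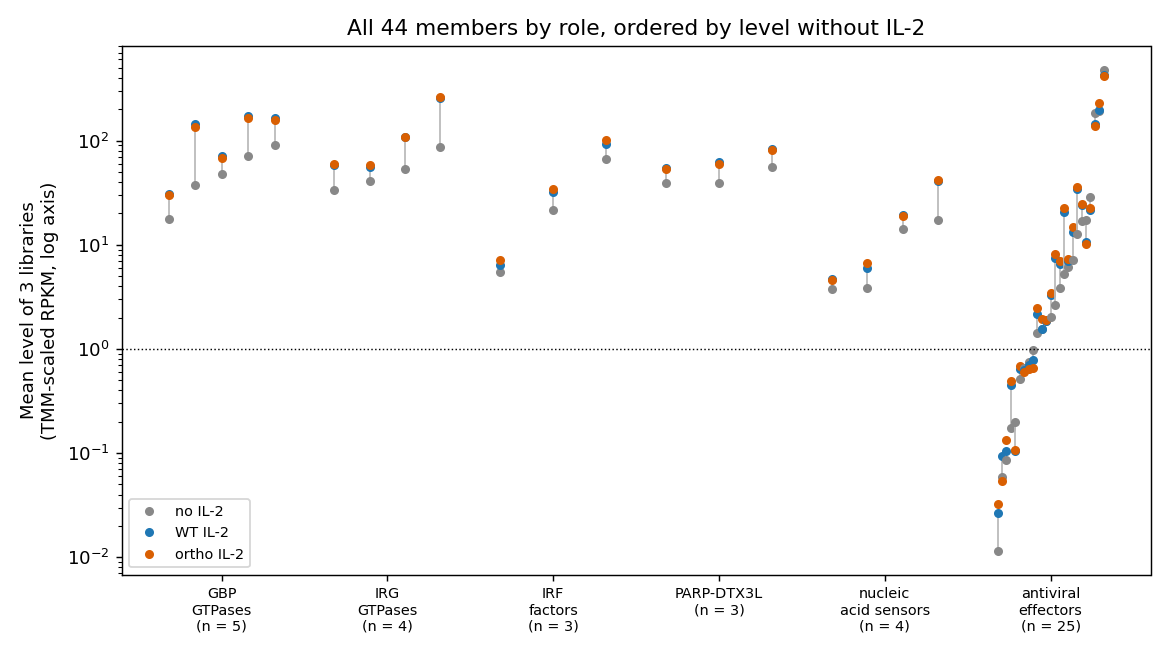
Mean level of 3 libraries (TMM-scaled RPKM, log axis) of all 44 members by role, ordered within a role by the level without IL-2; grey is no IL-2, blue WT IL-2 and orange ortho IL-2, and the dotted line marks a level of 1. The GTPases lie between 17.5 and 264 in all groups, while the antiviral effectors span from 0.0116 (Oasl2) to 476 (Samhd1), both without IL-2.

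The sequences before the gene starts were read to see which members hold the ISRE and GAS forms that the interferon and IL-2 pathways use. They are the 250 bases before RefSeq's start in GRCm38.p6, a reference that is not of the BALB/c strain, and 33 of the 44 members had such a window, I830012O16Rik as Ifit3b. The ISRE was searched as GAAA, any 2 bases and GAAA, with its reverse complement TTTC, any 2 bases and TTTC, and the GAS as TTCNNNGAA, whose form reads the same on both strands. An ISRE stood before 7 of the 7 GTPase members with a window and a GAS before 4 of 7, where 3.46% and 8.13% of the 27025 genes in the table hold one. Of the antiviral effectors with a window, 8 of 20 had an ISRE and 5 of 20 a GAS. The 7 windows printed here are those of the most strongly changed GTPases, of a neighbouring pair, of Irf1 and Isg20, which have a GAS and no ISRE, and of Ifit1, which has ISREs and lay under the filter. Capitals mark every match, and each sequence runs in the direction of its gene.
Gbp5: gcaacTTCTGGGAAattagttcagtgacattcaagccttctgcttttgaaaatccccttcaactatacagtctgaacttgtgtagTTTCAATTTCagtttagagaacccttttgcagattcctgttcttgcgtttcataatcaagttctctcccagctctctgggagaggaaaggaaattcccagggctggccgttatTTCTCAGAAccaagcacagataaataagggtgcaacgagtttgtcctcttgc
Gbp7: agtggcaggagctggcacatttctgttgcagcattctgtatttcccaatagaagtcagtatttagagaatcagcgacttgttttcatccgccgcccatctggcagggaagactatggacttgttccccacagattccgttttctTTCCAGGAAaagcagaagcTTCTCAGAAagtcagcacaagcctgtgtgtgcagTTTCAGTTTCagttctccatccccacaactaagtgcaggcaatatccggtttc
Igtp: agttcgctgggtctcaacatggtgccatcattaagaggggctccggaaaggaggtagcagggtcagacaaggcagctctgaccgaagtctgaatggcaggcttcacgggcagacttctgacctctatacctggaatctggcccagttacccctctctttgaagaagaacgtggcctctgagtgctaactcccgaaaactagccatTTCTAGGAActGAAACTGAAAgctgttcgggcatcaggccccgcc
Irgm2: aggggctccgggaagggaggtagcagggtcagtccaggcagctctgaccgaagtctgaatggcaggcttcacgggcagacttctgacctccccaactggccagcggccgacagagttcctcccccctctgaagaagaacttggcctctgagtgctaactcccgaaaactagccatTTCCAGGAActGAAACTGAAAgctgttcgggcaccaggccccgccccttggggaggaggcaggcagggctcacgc
Irf1: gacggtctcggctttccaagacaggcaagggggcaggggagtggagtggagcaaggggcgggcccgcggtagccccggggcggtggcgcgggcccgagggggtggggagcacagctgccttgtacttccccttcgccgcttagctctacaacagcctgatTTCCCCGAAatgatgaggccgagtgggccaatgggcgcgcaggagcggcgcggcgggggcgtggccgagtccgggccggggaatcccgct
Isg20: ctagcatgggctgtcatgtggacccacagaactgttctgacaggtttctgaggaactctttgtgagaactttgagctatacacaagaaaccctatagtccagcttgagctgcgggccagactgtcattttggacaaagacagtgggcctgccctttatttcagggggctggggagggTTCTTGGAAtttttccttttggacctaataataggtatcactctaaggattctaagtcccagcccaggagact
Ifit1: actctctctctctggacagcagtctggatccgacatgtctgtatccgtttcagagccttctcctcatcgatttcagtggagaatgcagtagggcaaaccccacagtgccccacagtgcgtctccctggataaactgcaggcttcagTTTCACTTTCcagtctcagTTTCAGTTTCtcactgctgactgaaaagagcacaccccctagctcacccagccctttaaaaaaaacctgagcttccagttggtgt
These windows are chr3:142496684-142496933, plus strand for Gbp5, chr3:142530086-142530335, plus strand for Gbp7, chr11:58199306-58199555, plus strand for Igtp, chr11:58214727-58214976, plus strand for Irgm2, chr11:53769764-53770013, plus strand for Irf1, chr7:78913174-78913423, plus strand for Isg20 and chr19:34640639-34640888, plus strand for Ifit1. Irf1 has 2 RefSeq starts and Isg20 has 3, and the windows shown are those that hold the match.

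In Igtp and Irgm2 the motifs form the same arrangement, a GAS followed after 2 bases by an ISRE, 45 to 25 bases before the start of Igtp and 75 to 55 bases before that of Irgm2. Gbp7 has GAS matches beginning 106 and 87 bases before its start and an ISRE beginning 53 bases before it. Gbp5 has GAS matches at 245 and 52 bases and an ISRE at 165 bases. Ifit1 holds ISREs beginning 104 and 85 bases before the start, and Isg15 holds a run of 3 overlapping ISREs beginning at 78, 72 and 66 bases. An ISRE and a GAS overlapped only in the window of Bst2 among the members. Among the 9 members under the filter, 4 of the 7 with a window had an ISRE, and among the 4 that fell, 0 of 4 had an ISRE and 2 of 4 a GAS. A match describes the letters of the window and is not a measured binding site, and a window without one says only that these letters are not in it.

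**Figure D3:**
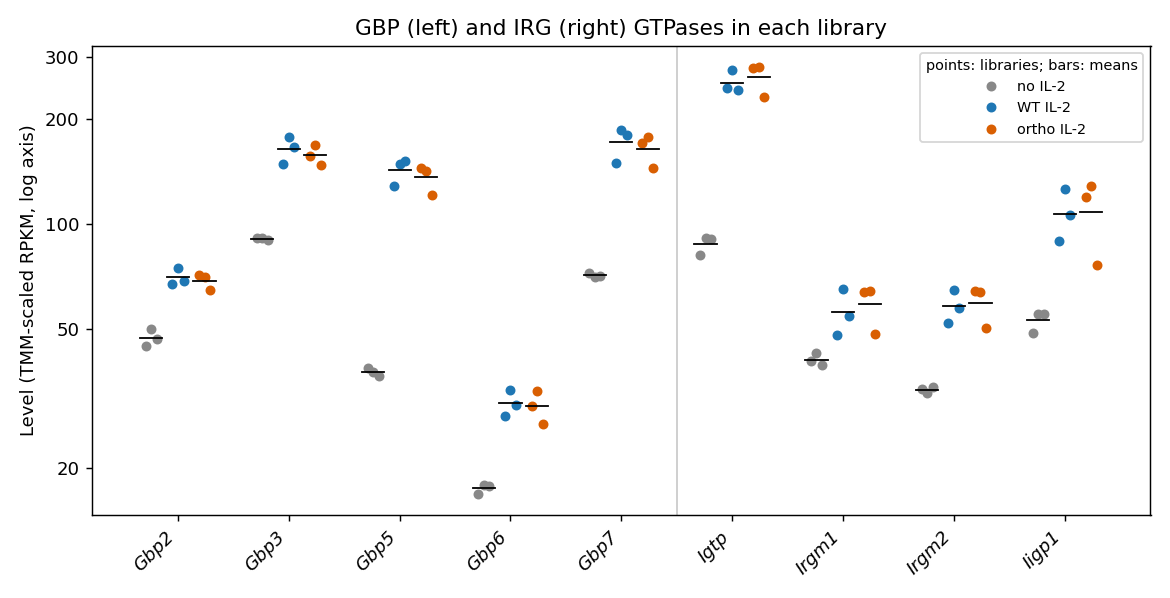
Level (TMM-scaled RPKM, log axis) of the 9 GBP and IRG members in each library, with bars for the mean of 3 libraries; grey is no IL-2, blue WT IL-2 and orange ortho IL-2. For each gene every stimulated library lies above every unstimulated one, and the third ortho IL-2 library is the lowest of its group in all 9.

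The guanylate-binding proteins (GBPs) are large GTPases that coat pathogen vacuoles and cytosolic bacteria. Gbp2, Gbp3, Gbp5 and Gbp7 lie in a cluster on chromosome 3 (chr3:142496934-142522344 for Gbp5 to chr3:142620663-142638008 for Gbp2, GRCm38.p6), and Gbp6 lies on chromosome 5 (chr5:105270702-105295871). Gbp5, which also promotes inflammasome assembly, showed the largest change of the family and stood at 38.7, 37.7 and 36.7 without IL-2, at 128, 148 and 151 after WT IL-2 and at 145, 142 and 121 after ortho IL-2. It rose 3.78-fold with WT IL-2 (log2 1.92, SE 0.08, adjusted p = 8.47e-08) and 3.6-fold with ortho IL-2 (log2 1.85, SE 0.08, adjusted p = 1.04e-07). All 6 stimulated libraries were above all 3 unstimulated ones. Gbp7 measured 72.2, 70.4 and 71.2 in the unstimulated libraries, 149, 186 and 179 after WT IL-2 and 171, 177 and 144 after ortho IL-2. It rose 2.41-fold with WT IL-2 (log2 1.27, SE 0.09, adjusted p = 2.94e-06) and 2.3-fold with ortho IL-2 (log2 1.2, SE 0.09, adjusted p = 4.10e-06). Again no stimulated library overlapped the unstimulated group.

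Gbp3 had levels of 91.2, 91.1 and 89.8 without cytokine, 149, 177 and 166 under WT IL-2 and 157, 168 and 148 under ortho IL-2. It rose 1.81-fold with WT IL-2 (log2 0.85, SE 0.07, adjusted p = 5.43e-06) and 1.74-fold with ortho IL-2 (log2 0.80, SE 0.07, adjusted p = 8.61e-06). The no IL-2 libraries of Gbp3 lay close together and below all others. Gbp6 stood at 16.9, 17.9 and 17.8 without IL-2, at 28.3, 33.5 and 30.3 after WT IL-2 and at 30.1, 33.3 and 26.8 after ortho IL-2, and it rose 1.75-fold with WT IL-2 (log2 0.81, SE 0.08, adjusted p = 3.55e-05) and 1.71-fold with ortho IL-2 (log2 0.78, SE 0.08, adjusted p = 4.66e-05). Gbp6 values are uncertain, because 90.2% of the 50-base stretches of its transcript occur in other genes, mainly Gbp10 and a predicted copy. For Gbp7 this share was 12.8% and for Gbp3, Gbp2 and Gbp5 it was under 5%. Gbp2 measured 44.8, 50.2 and 46.8 in the unstimulated libraries, 67.5, 75 and 68.7 after WT IL-2 and 71.3, 70.3 and 64.5 after ortho IL-2. It rose 1.49-fold with WT IL-2 (log2 0.57, SE 0.06, adjusted p = 4.60e-05) and 1.45-fold with ortho IL-2 (log2 0.54, SE 0.06, adjusted p = 6.93e-05). The groups with and without IL-2 did not overlap for any of the 5 GBP members.

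The immunity-related GTPases (IRGs) act on vacuoles that hold parasites such as Toxoplasma, with Irgm1, Irgm2 and Igtp (also called Irgm3) as regulators and Iigp1 as an effector. Igtp and Irgm2 are neighbours on chromosome 11 (chr11:58199556-58207592 and chr11:58214977-58222783), and Irgm1 lies elsewhere on it (chr11:48865245-48871420). Igtp had the highest level of the 9 GTPases after stimulation and stood at 81.4, 90.9 and 90.7 without IL-2, at 245, 276 and 241 after WT IL-2 and at 280.2, 281 and 231 after ortho IL-2. It rose 2.9-fold with WT IL-2 (log2 1.54, SE 0.09, adjusted p = 4.99e-07) and 3.01-fold with ortho IL-2 (log2 1.59, SE 0.09, adjusted p = 3.90e-07), and 12.3% of its 50-base stretches are shared, mainly with Irgm2. Irgm2 measured 33.7, 32.8 and 34.1 in the unstimulated libraries, 52.2, 64.9 and 57.5 after WT IL-2 and 64.3, 63.9 and 50.5 after ortho IL-2. It rose 1.74-fold with WT IL-2 (log2 0.80, SE 0.10, adjusted p = 1.33e-04) and 1.78-fold with ortho IL-2 (log2 0.83, SE 0.10, adjusted p = 9.62e-05). For both neighbours every stimulated library was above every unstimulated one.

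Iigp1 had levels of 48.7, 55.2 and 55.2 without cytokine, 89.3, 126 and 106 under WT IL-2 and 119.7, 128 and 76.3 under ortho IL-2. It rose 2.02-fold with WT IL-2 (log2 1.01, SE 0.18, adjusted p = 0.00133) and 2.04-fold with ortho IL-2 (log2 1.03, SE 0.18, adjusted p = 0.00113). Relative to the mean, its stimulated libraries spread the most of the 9 GTPases, with ortho IL-2 replicate 3 the lowest, and without that library and WT IL-2 replicate 1 the log2 changes were 1.13 and 1.23. Irgm1 stood at 40.6, 42.7 and 39.3 without IL-2, at 48.2, 65.3 and 54.5 after WT IL-2 and at 63.7, 64.3 and 48.5 after ortho IL-2. It rose 1.37-fold with WT IL-2 (log2 0.45, SE 0.13, adjusted p = 0.0144) and 1.44-fold with ortho IL-2 (log2 0.52, SE 0.13, adjusted p = 0.00629), the smallest changes of the family. Its call with WT IL-2 was lost without no IL-2 replicate 3, at an edgeR adjusted p of 0.0512, and both calls were lost with the covariate, at 0.108 and 0.122, while the log2 changes were then 0.57 and 0.66.

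The interferon regulatory factors (IRFs) pass interferon signals on to the genes. Irf1, an early target gene of interferon gamma (chr11:53770014-53778374), had levels of 63.3, 67.1 and 67.2 without cytokine, 87, 101 and 89.9 under WT IL-2 and 107, 104 and 89.1 under ortho IL-2. It rose 1.41-fold with WT IL-2 (log2 0.49, SE 0.08, adjusted p = 6.02e-04) and 1.52-fold with ortho IL-2 (log2 0.60, SE 0.08, adjusted p = 1.48e-04), and the groups with and without IL-2 did not overlap. Irf9, a DNA-binding partner of STAT2 (chr14:55603985-55610030), stood at 21, 22.9 and 20.7 without IL-2, at 32.5, 34.6 and 30 after WT IL-2 and at 35.1, 33.7 and 34.3 after ortho IL-2. It rose 1.5-fold with WT IL-2 (log2 0.59, SE 0.06, adjusted p = 3.82e-05) and 1.6-fold with ortho IL-2 (log2 0.67, SE 0.06, adjusted p = 1.41e-05), again without overlap. Irf7, the factor that amplifies type I interferon production, measured 5.41, 5.68 and 5.49 in the unstimulated libraries, 7.17, 6.01 and 6.11 after WT IL-2 and 6.35, 7.04 and 8.1 after ortho IL-2. Irf7 was not called with WT IL-2 (log2 0.22, SE 0.11, adjusted p = 0.123) and rose 1.3-fold with ortho IL-2 (log2 0.38, SE 0.11, adjusted p = 0.0153). On the deposited RPKM without TMM scaling Irf7 was called with WT IL-2 too, at log2 0.34, where the median over all genes was 0.19. The ortho call of Irf7 was lost without ortho IL-2 replicate 3, without no IL-2 replicate 1, with GC offsets (log2 0.13) and with the covariate (log2 0.05), and its difference between ortho and WT IL-2 was not called (log2 0.16, 95% interval -0.08 to 0.39).

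Parp9 and Dtx3l encode a pair of proteins that join ADP-ribose and ubiquitin signalling in the interferon response, and Parp14 is another ADP-ribosyltransferase from the same stretch of chromosome 16. All 3 rose with both cytokines. Parp14 stood at 38.1, 39.2 and 40.2 without IL-2, at 59.1, 65.3 and 61.7 after WT IL-2 and at 61.1, 63.8 and 54.5 after ortho IL-2. It rose 1.58-fold with WT IL-2 (log2 0.66, SE 0.06, adjusted p = 1.90e-05) and 1.53-fold with ortho IL-2 (log2 0.61, SE 0.06, adjusted p = 3.33e-05). Dtx3l measured 54, 55.6 and 56 in the unstimulated libraries, 78.4, 86.9 and 85.9 after WT IL-2 and 83, 87.5 and 75.3 after ortho IL-2. It rose 1.52-fold with WT IL-2 (log2 0.60, SE 0.06, adjusted p = 3.33e-05) and 1.48-fold with ortho IL-2 (log2 0.57, SE 0.06, adjusted p = 4.78e-05). Neither gene overlapped between the stimulated and unstimulated libraries. Parp9 rose 1.41-fold and 1.38-fold. Parp9 and Dtx3l overlap on opposite strands, and since the use of strand in counting is not given in the sources used here, their reads cannot be told apart fully.

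The 4 sensors of foreign nucleic acid rose with both cytokines. Zbp1, which senses Z-form nucleic acid and can start cell death (chr2:173206612-173218959), changed most and stood at 16.9, 17.1 and 18.1 without IL-2, at 43, 41.2 and 37.6 after WT IL-2 and at 42.5, 41.6 and 41.1 after ortho IL-2. It rose 2.34-fold with WT IL-2 (log2 1.23, SE 0.06, adjusted p = 1.47e-07) and 2.4-fold with ortho IL-2 (log2 1.26, SE 0.06, adjusted p = 1.25e-07), with no overlap between stimulated and unstimulated libraries. Dhx58, which encodes the RNA helicase LGP2, had levels of 3.9, 3.89 and 3.7 without cytokine, 6.6, 5.54 and 5.65 under WT IL-2 and 6.25, 6.6 and 7.28 under ortho IL-2. It rose 1.55-fold with WT IL-2 (log2 0.63, SE 0.10, adjusted p = 4.33e-04) and 1.75-fold with ortho IL-2 (log2 0.81, SE 0.10, adjusted p = 7.50e-05). Its groups with and without IL-2 did not overlap, but both calls were lost with the covariate, at log2 changes of 0.49 and 0.63. Ddx58, which encodes RIG-I, rose 1.37-fold and 1.33-fold, and Ifih1, which encodes MDA5, 1.25-fold and 1.23-fold. These 2 changes were small but the groups did not overlap, with Ddx58 at 14.1 ± 0.111 unstimulated, 19.4 ± 0.64 after WT IL-2 and 18.9 ± 0.467 after ortho IL-2 (SD, n = 3). The Ifih1 calls were lost with the covariate, though its log2 changes of 0.33 and 0.29 became 0.45 and 0.45, and the ortho call also without no IL-2 replicate 2, at 0.27.

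Among the antiviral effectors, 3 genes rose more than 2-fold with each cytokine. Isg20, an exonuclease that degrades RNA (chr7:78913396-78920396), stood at 5.27, 4.93 and 5.53 without IL-2, at 23, 20.4 and 18.4 after WT IL-2 and at 23.6, 22.2 and 22.1 after ortho IL-2. It rose 3.94-fold with WT IL-2 (log2 1.98, SE 0.10, adjusted p = 1.79e-07) and 4.33-fold with ortho IL-2 (log2 2.12, SE 0.10, adjusted p = 1.25e-07), the largest changes among the members, and its window above holds a GAS and no ISRE. Lgals3bp, a secreted galectin-binding glycoprotein (chr11:118392747-118401959), measured 2.97, 2.57 and 2.43 in the unstimulated libraries, 8.4, 7.35 and 6.85 after WT IL-2 and 8.23, 7.83 and 8.47 after ortho IL-2. It rose 2.82-fold with WT IL-2 (log2 1.5, SE 0.11, adjusted p = 2.20e-06) and 3.06-fold with ortho IL-2 (log2 1.62, SE 0.11, adjusted p = 1.23e-06). Ifi35, an interferon-induced leucine zipper protein (chr11:101448412-101458701), had levels of 12.9, 12.9 and 12.6 without cytokine, 34.8, 35.2 and 33 under WT IL-2 and 37.8, 35.2 and 35.5 under ortho IL-2. It rose 2.68-fold with WT IL-2 (log2 1.42, SE 0.05, adjusted p = 3.16e-08) and 2.83-fold with ortho IL-2 (log2 1.5, SE 0.05, adjusted p = 2.63e-08). For all 3 the stimulated libraries stood clear of the unstimulated ones.

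Bst2, or tetherin, which holds budding viruses on the cell surface, stood at 6.65, 7.65 and 7.11 without IL-2, at 15.5, 12.4 and 12.1 after WT IL-2 and at 13.7, 13.5 and 16.9 after ortho IL-2. It rose 1.87-fold with WT IL-2 (log2 0.90, SE 0.13, adjusted p = 3.85e-04) and 2.07-fold with ortho IL-2 (log2 1.05, SE 0.13, adjusted p = 1.28e-04), and both calls were lost with the covariate, at log2 changes of 0.59 and 0.65. All 6 stimulated libraries of Bst2 were above every unstimulated one. Rtp4, an interferon-induced receptor transporter protein, measured 3.58, 3.61 and 4.32 in the unstimulated libraries, 6.14, 7.2 and 6.2 after WT IL-2 and 6.82, 7.02 and 6.92 after ortho IL-2. It rose 1.71-fold with WT IL-2 (log2 0.77, SE 0.10, adjusted p = 1.83e-04) and 1.82-fold with ortho IL-2 (log2 0.86, SE 0.10, adjusted p = 8.15e-05). Rtp4 overlaps Masp1 on the opposite strand. Oas3, a synthetase whose oligoadenylate product activates RNase L, had levels of 2.05, 1.87 and 2.18 without cytokine, 3.53, 3.18 and 3.2 under WT IL-2 and 3.27, 3.48 and 3.66 under ortho IL-2. It rose 1.63-fold with WT IL-2 (log2 0.70, SE 0.09, adjusted p = 1.04e-04) and 1.71-fold with ortho IL-2 (log2 0.78, SE 0.09, adjusted p = 5.19e-05), and neither Rtp4 nor Oas3 overlapped between groups with and without IL-2. The ortho call of Rtp4 was lost with the covariate, at a log2 change of 0.68 and an adjusted p of 0.0552. Adar, which edits double-stranded RNA, rose 1.44-fold and 1.48-fold.

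Isg15, the ubiquitin-like modifier that is among the classical type I interferon targets, stayed low and stood at 1.43, 1.64 and 1.21 without IL-2, at 2.65, 1.92 and 1.93 after WT IL-2 and at 2.92, 1.84 and 2.6 after ortho IL-2. It was not called with WT IL-2 (log2 change 0.59, SE 0.23, edgeR adjusted p = 0.0559). With ortho IL-2 it was called, at a 1.73-fold difference (log2 0.79, SE 0.23, edgeR adjusted p = 0.0136). All stimulated libraries of Isg15 were above all unstimulated ones, but Isg15 passed the filter through the stimulated libraries alone. The filter thus favoured a rise in advance, and neither this order nor the calls of Isg15 against no IL-2 are evidence of one. The difference of Isg15 between ortho and WT IL-2 was not called. Isg15 was called with WT IL-2 too when ortho IL-2 replicate 2 was left out (edgeR adjusted p = 0.0367) and on the unscaled RPKM (log2 0.43). Its ortho call was lost with the covariate (edgeR adjusted p = 0.274), while the log2 change was 0.85. Usp18, the protease that removes ISG15 and restrains type I interferon signalling, had mean levels of 1.56 ± 0.00686, 1.56 ± 0.0861 and 1.95 ± 0.21 in the no IL-2, WT IL-2 and ortho IL-2 groups (SD, n = 3). Usp18 was called with ortho IL-2 at an edgeR adjusted p of 0.0496, and that call was lost with DESeq2, with DESeq2 size factors and in most other alternatives. Like Isg15, Usp18 passed the filter through the stimulated libraries alone, so that call is not evidence of a rise. Oas1a, Ifi27l2a and Xaf1 were not called with either cytokine. Xaf1 had a log2 change of 0.21 and 0.24, Ifi27l2a of 0.04 and 0.24 and Oas1a of 0.02 and 0.02 with WT and ortho IL-2, with 95% intervals that include 0. Without no IL-2 replicate 3, Xaf1 was called with both, at log2 changes of 0.35 and 0.38, as it was on the unscaled RPKM, at 0.34 and 0.42. Its ortho change was also called with no filter and with GC offsets, with or without the block, at 0.28 to 0.32. On the unscaled RPKM Ifi27l2a was called with ortho IL-2, at 0.50, where the median over all genes was 0.25. It was the second most abundant antiviral effector, at 192 ± 11.1 without IL-2. For Oas1a, 57.6% of its 50-base stretches occur in other genes.

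The 4 antiviral effectors that fell did so with both cytokines. Ifit2, a tetratricopeptide protein that restrains viral translation (chr19:34550550-34576534), stood at 17.4, 18 and 16.7 without IL-2, at 9.49, 11.5 and 10.9 after WT IL-2 and at 10.1, 11.1 and 9.26 after ortho IL-2. It fell 1.63-fold with WT IL-2 (log2 -0.71, SE 0.08, adjusted p = 8.26e-05) and 1.72-fold with ortho IL-2 (log2 -0.78, SE 0.08, adjusted p = 4.14e-05), and every stimulated library was below every unstimulated one. It was the sole IFIT gene among the members above the filter. Trim25, a ubiquitin ligase that acts on RIG-I, fell 1.33-fold and 1.29-fold, and Sp100, a nuclear body protein, 1.3-fold and 1.34-fold. Samhd1, which depletes nucleotides needed by viruses, was the most abundant member without IL-2, at 476 ± 11.7 (SD, n = 3). It fell 1.11-fold and 1.15-fold, and its WT call was lost without WT IL-2 replicate 1, and also without either no IL-2 replicate 1 or 3. With no filter both its calls were lost, at log2 changes of -0.098 and -0.12. On the deposited RPKM without further scaling, which shifts the median log2 change of all genes to 0.19 and 0.25, Samhd1 turned to 0.06 and 0.08, still under that shift. There Sp100 was not called with either cytokine and Trim25 not with ortho IL-2, and with the covariate neither Samhd1, at -0.13 and -0.16, nor the ortho change of Sp100, at -0.39, was called, though these values are close to those of the main test.

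The 9 members under the filter were all antiviral effectors, and several are textbook type I interferon targets: Ifit1, Ifit3, I830012O16Rik (Ifit3b), Mx1, Oas2, Oasl2, Ifi44, Rsad2 and Cmpk2. None reached an RPKM of 1 as deposited in any library. Mx1 had 17 reads over the 3 no IL-2 libraries, 31 over the WT IL-2 libraries and 43 over the ortho IL-2 libraries. Rsad2, or viperin, had 59, 41 and 38 reads, and Oasl2 3, 9 and 13. These sums are not scaled for depth, and at them only large differences could be seen. Per library, reads numbered 2 to 14 for Ifi44, 12 to 124 for Oas2, 20 to 69 for I830012O16Rik, 24 to 111 for Ifit1, 26 to 83 for Ifit3 and 43 to 127 for Cmpk2. Ifit1 had levels of 0.511 ± 0.0662, 0.641 ± 0.0487 and 0.681 ± 0.0573 (SD, n = 3), and Ifit3, whose transcript shares 51.2% of its 50-base stretches with copies, 0.974 ± 0.0691, 0.778 ± 0.192 and 0.652 ± 0.0476. Oas2 stood apart from the other 8, with levels of 0.192, 0.136 and 0.19 unstimulated, 0.454, 0.486 and 0.419 after WT IL-2 and 0.503, 0.432 and 0.54 after ortho IL-2. In the alternative fit with no filter, Oas2 was called higher with both (log2 1.45 and 1.60, edgeR adjusted p = 1.56e-04 and 4.98e-05) and the other 8 were not called in either comparison. Oas2 was singled out after its values were seen.

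Between ortho and WT IL-2, edgeR called 0 of the 35 members and 0% of the 10702 genes tested, and DESeq2 called 0 of them too. Without adjustment, 149 genes (1.39%) had a p under 0.05, and 1 of them was a member, Usp18. Usp18 was 1.24-fold higher with ortho IL-2, with a 95% interval of the log2 difference from 0.05 to 0.57 and an edgeR adjusted p of 0.909. Every ortho IL-2 library was above every WT IL-2 library for 3 members, Ifi35, Trim25 and Usp18, and below for 0, where the background was 2.42% and 2.23%. Over the 9 GTPases the log2 differences ran from -0.07 to 0.07, with 95% intervals within -0.39 to 0.41. Over all 35 members they ran from -0.07 to 0.31, with intervals within -0.39 to 0.65, whose upper end belongs to Isg15. These intervals bound the difference at the doses used and do not show that the cytokines act alike.

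Of 15 interferon genes, which encode the ligands, 11 had 0 reads in every library, the interferon beta gene Ifnb1 among them, and 1 passed the filter. At these depths a count of 0 still allows 3 reads, or 0.0516 to 0.181 CPM. The gene that passed the filter, Ifng for interferon gamma, stood at 0.923, 1.03 and 0.557 without IL-2, at 1.47, 2.13 and 1.89 after WT IL-2 and at 2.87, 2.46 and 1.83 after ortho IL-2. All 6 stimulated libraries lay above the 3 unstimulated ones, but Ifng passed the filter through the stimulated libraries alone and so had to differ, and no test of it is given. Of the CD8 T and NK cell markers, Nkg7 was called higher with both cytokines, with log2 changes of 0.60 and 0.71, and Prf1 passed the filter, like Ifng, through the stimulated libraries alone, with 1.42 ± 0.0554 unstimulated, 3.33 ± 0.564 after WT IL-2 and 3.62 ± 0.45 after ortho IL-2 (SD, n = 3). Cd8b1 was not called, at 0.14 and 0.16, and the part of such cells in the Ifng result was not tested.

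Of the 19 receptor and signalling genes tested, 7 rose, 5 fell and 7 were not called after WT IL-2, and 9, 7 and 3 after ortho IL-2. The background was 25% called up and 22.9% called down under WT IL-2, and 28.5% and 27.4% under ortho IL-2. Of this list, 36.8% rose and 26.3% fell under WT IL-2, and 47.4% rose and 36.8% fell under ortho IL-2. Of these shares, the fall under WT IL-2 is near the background. Ifnar1, a chain of the type I receptor, fell from 74.6 ± 4.0 to 45 ± 2.84 and 43.6 ± 1.97 (SD, n = 3), with log2 changes of -0.73 and -0.78, and its partner Ifnar2 had -0.52 and -0.53. Ifngr1, of the interferon gamma receptor, had -0.19 and -0.22, and on the unscaled RPKM 0.02 and 0.06. Ifngr2 was not called with WT IL-2 and fell with ortho IL-2, at -0.11 and -0.13, and on the unscaled RPKM 0.10 and 0.14. Jak1 fell too, at -0.63 and -0.66. Stat2, the partner of Irf9, rose, with log2 changes of 0.47 and 0.49. Socs1, an inhibitor of interferon and IL-2 receptor kinases, had the largest change on the list, from 3.33, 3.9 and 5.75 without IL-2 to 114, 70.3 and 74.3 after WT IL-2 and 90.4, 73.8 and 114 after ortho IL-2. It rose 20.6-fold with WT IL-2 (log2 4.37, SE 0.27, adjusted p = 8.98e-07) and 22.3-fold with ortho IL-2 (log2 4.48, SE 0.27, adjusted p = 7.57e-07), and Socs3 rose 4.1-fold and 4.3-fold.

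**Figure D4:**
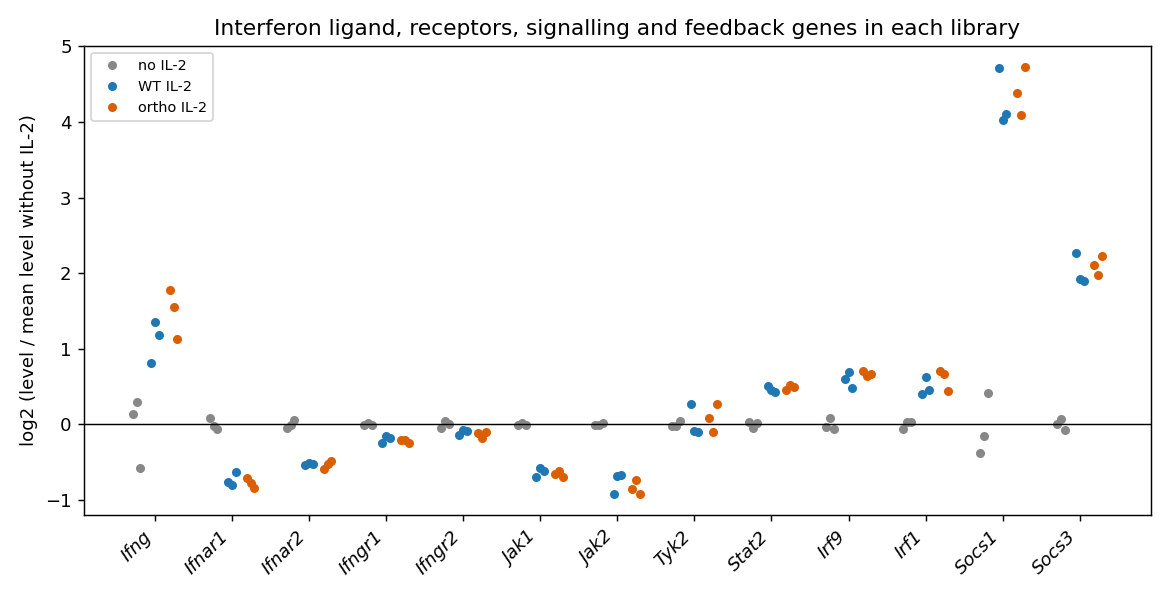
Log2 of each library's level over the mean without IL-2, for the interferon gamma gene, interferon receptors, kinases, Stat2, IRFs and the feedback inhibitors Socs1 and Socs3; grey is no IL-2, blue WT IL-2 and orange ortho IL-2. Ifnar1, Ifnar2, Jak1 and Jak2 lie below 0 in every stimulated library, while Stat2, Irf1 and Irf9 lie above 0 and Socs1 lies above 4.

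Further GTPases of the GBP and IRG families, 16 of them, were counted too: 10 rose, 3 fell and 3 were not called with each cytokine, which is 62.5% higher, above the share of all genes, and 18.8% lower, near it. Gm12250 had log2 changes of 1.91 and 1.94, Gbp11 of 0.92 and 0.93 and Ifi47, also an IRG protein, of 0.89 and 0.95. 9930111J21Rik1 fell, at -0.80 and -0.81, but 79.3% of its 50-base stretches occur in other genes. Of 42 other interferon-stimulated genes tested, 12 rose, 9 fell and 21 were not called after WT IL-2, and 16, 11 and 15 after ortho IL-2, at medians of 0.07 and 0.09. The WT split, 28.6% higher and 21.4% lower, is near the 25% and 22.9% of all genes, and the ortho split was 38.1% and 26.2%, against 28.5% and 27.4%. The helicase gene Mov10 had 1.79 and 1.83, and the membrane proteins that block viral entry, Ifitm1, Ifitm2 and Ifitm3, had 1.61 and 1.65, 1.62 and 1.71, and 1.01 and 1.02. On the unscaled RPKM the split of this list was 21 higher and 1 lower after WT IL-2 and 26 and 2 after ortho IL-2. Of 9 adaptors and receptors of nucleic acid sensing tested, 1 rose, 3 fell and 5 were not called after WT IL-2, and 4, 3 and 2 after ortho IL-2, and with 9 genes tested the shares given above for all genes correspond to 2 or 3 genes in each direction. The endosomal RNA receptor gene Tlr7 had -0.91 and -1.0, the kinase gene Ikbke -0.60 and -0.47, the adaptor gene Myd88 0.44 and 0.52 and the kinase gene Tbk1 -0.19 and -0.25, which turned to 0.02 and 0.03 on the unscaled RPKM.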

How the data were processed

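RNA-seq libraries of 9 samples in 3 groups were analysed from the tables the authors deposited, 1 per library. Per the file headers, each deposited table holds raw read counts and RPKM for 31682 transcripts of 23992 symbols. The submitters' processing notes name Bowtie2, TopHat2, SAMtools 0.1.8, bedtools 2.25.0, edgeR and the mm10 build. What each tool did, how reads were counted, and whether strand was used is not given in the sources used here. In each table the RPKM the authors deposited divide by a read number larger than the reads in genes, and the difference is called reads outside genes. Reads in genes are summed over the 1 transcript taken per symbol. Reads that lie only in other transcripts of a symbol are therefore among those called outside genes.

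The 44 members and all gene lists were chosen with earlier results of these data known, so no list is independent evidence. For 4343 symbols with several transcripts, the one with the most reads was used. The 10702 genes that reached a deposited RPKM of 1 in 3 or more of the 9 libraries were tested on the counts with edgeR 4.0.16 (quasi-likelihood test, R 4.3.3), with TMM scaling, group means over all 9 libraries, and Benjamini-Hochberg adjustment over all genes tested. SEs and 95% intervals come from the information matrix of that fit and its moderated quasi-dispersion. Levels are RPKM recomputed from reads in genes with TMM scaling. Pairs of libraries within a group differed by more than counting noise, so each was counted as 1 sample. The value in every library is given for tested GBP, IRG and IRF members and for other members called with a change of at least 1.5-fold; of each further pathway list up to 4 genes with the smallest p are named, with the interferon receptors, Stat2, Socs1 and Ifng, and Il2ra and Cish for IL-2. Jak2, Pecam1, Itgam, Prf1, Nkg7, Cd8b1, Foxp3, Cd3e and Ctla4 are named beyond this rule. Positions, promoter windows and renamed symbols are RefSeq's for GRCm38.p6, matched by symbol or gene ID. Shared 50-base stretches were counted between GENCODE transcripts. Alternatives were DESeq2 1.42.0 and its size factors, no TMM, the unscaled deposited RPKM in limma 3.58.1 with a pseudocount of 1, no filter, a minimum of 5, summed transcripts, 2-group fits, a replicate block, GC offsets, both together, reads outside genes as a covariate, and leaving out each library. An alternative without WT IL-2 replicate 1 and ortho IL-2 replicate 3 was chosen after seeing the data. The fit was also run on simulated counts. These hold neither outlying libraries nor a shift in reads outside genes, and no result given here rests on that run. One gene of the signalling list that this rule names is not reported here.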

Additional observations from a re-analysis of the deposited data

How the results depend on the processing

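The labels number the libraries 1 to 3 in each group but do not say that a number marks a shared animal, batch or day. The deviations of same-numbered libraries correlated at -0.66 to 0.44, so the numbers were not taken as pairs. With the replicate number as a block, the members split into 25 higher and 4 lower under WT and 27 and 4 under ortho IL-2, and all 9 GTPases stayed higher with both. The block moved the adaptors higher with ortho IL-2 from 4 to 2.

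The counts of members called higher stayed within 25 to 26 with WT IL-2 and 26 to 28 with ortho IL-2 when each library was left out in turn, those lower within 3 to 4 and at 4, and the GTPases higher within 8 to 9 and at 9. Calls of Usp18, Irf7, Samhd1, Irgm1 and Ifih1 were lost in at least 1 of these fits, and Isg15 and Xaf1 gained one. The covariate took all genes called from 2675 higher and 2447 lower to 1217 and 913 with WT IL-2, and from 3054 and 2936 to 925 and 648 with ortho IL-2. The unscaled RPKM gave 4459 and 867, and 5599 and 922. Members lower with ortho IL-2 numbered 2 with the covariate and 1 on the unscaled RPKM, and members lower with WT IL-2 2 on the unscaled RPKM.

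Other interferon-stimulated genes called higher and lower numbered 6 and 4 with WT IL-2 and 5 and 2 with ortho IL-2 under the covariate, and 21 and 1, and 26 and 2, on the unscaled RPKM. Receptor and signalling genes with ortho IL-2 numbered 5 higher and 4 lower under the covariate, and 4 lower with no filter and on the unscaled RPKM. Adaptors higher with WT IL-2 numbered 2 with GC offsets, with the block and GC offsets together, with 2-group fits and without WT IL-2 replicate 1 and ortho IL-2 replicate 3 (added after seeing the data), 5 on the unscaled RPKM, and 1 to 2 with each library left out. Adaptors higher with ortho IL-2 numbered 2 at a minimum RPKM of 5, with GC offsets and with the block and GC offsets together, 1 under the covariate, and 1 to 5 with each library left out, and adaptors lower with ortho IL-2 numbered 1 on the unscaled RPKM. The difference in reads outside genes ranged from 8.51 to 10.8 percentage points when a library was left out, and without a no IL-2 library the smallest exact permutation p possible is 0.0714. Apart from the filters, which change which genes are tested, the cause of these shifts was not tested.

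Signs turned, among the genes named, where the log2 change was small. Oas1a with WT IL-2 was -0.035 with GC offsets, -0.020 with block and GC offsets, -0.42 under the covariate and -0.01 without the pair of libraries, and ranged from -0.14 to 0.16 with each library left out. Oas1a with ortho IL-2 was -0.079, -0.065, -0.55 and -0.02, and ranged from -0.14 to 0.16. Ifi27l2a with WT IL-2 was -0.038, -0.040, -0.29 and -0.12, with a range of -0.12 to 0.12, and with ortho IL-2 -0.19 under the covariate. Usp18 with WT IL-2 was -0.0075 with DESeq2, -0.0067 with its size factors, -0.024 with GC offsets and -0.021 with block and GC offsets, with a range of -0.037 to 0.043. Irf7 with WT IL-2 was -0.030 under the covariate. On the unscaled RPKM the values with WT and ortho IL-2 were 0.061 and 0.080 for Samhd1, 0.021 and 0.031 for Tbk1, 0.023 and 0.056 for Ifngr1, and 0.10 and 0.14 for Ifngr2. Depth limits the 9 members under the filter, at up to 127 reads in any library.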
